A study of Rattus norvegicus with 63 samples.

Results

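The comparison is between the septum of rats that could take cocaine for 1 h per day (short access) and the septum of rats with 0 h of access (no access, drug-naive). It rests on 6 of the 63 arrays of the study, namely every array labelled septum with short access (3) or no access (3). Rats with access took cocaine themselves through a vein, on a continuous schedule with 0.25 mg per injection. A further 3 septum arrays come from rats with 6 h of access per day (long access) and entered the fit to estimate the spread. The design gives 8 rats per access group against 3 septum arrays per group, and the labels used here do not say how many rats one array holds, so p-values measure the spread between arrays, which may be technical. Strain, sex and age were not given in the sources used here.

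The septum lies in the midline of the forebrain between the lateral ventricles. Its lateral part consists mostly of inhibitory GABA neurons, many of which also make peptides such as somatostatin, and it receives input from the hippocampus and sends fibres to the hypothalamus and the ventral tegmental area. Its medial part holds cholinergic and GABA neurons that project to the hippocampus and help to pace its rhythms. The region is known for electrical self-stimulation and is studied for its part in reward, fear and mood.

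RNA levels were read on a rat neurobiology array, a panel of probe sets chosen for brain genes, and are given as log2 of a signal scaled to the same trimmed mean on every array. A difference of 1 on this scale is 2-fold, and levels of different probe sets are not comparable. Of 1263 probe sets, 736 were bright enough in the septum to be tested, and 662 of those carried 1 gene symbol, for 462 genes. The septum arrays correlated with each other at 0.974 to 0.988 within the short access group and 0.976 to 0.982 within the no access group. Between short and no access arrays the range was 0.964 to 0.984. The third short access array gave the low values, at 0.977 and 0.974 with the other short access arrays. Its lowest with a no access array was 0.964. Among the markers of septal neurons, the vesicular GABA transporter Slc32a1 was higher in the septum than the mean of the other 5 regions by 0.92 ± 0.05 (SE), the GABA-synthesising enzyme Gad1 by 0.80 ± 0.11 and the vesicular acetylcholine transporter Slc18a3 by 0.67 ± 0.09. The dopamine receptor Drd3, at 0.01 ± 0.11, and the neurotrophin receptor Ngfr, at 0.13 ± 0.11, did not pass that test, and Sst was lower by 0.82 ± 0.08.

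After short access a small set of genes was lower in the septum and a smaller one higher. The transcripts of the neuropeptides somatostatin (Sst) and substance P (Tac1), the GABA-degrading enzyme Abat, the pentraxin receptor Nptxr, the kinase Ptk2b, the G protein subunit Gnb1, the transcription factor Hes1, the signalling inhibitor Smad7, the vesicle protein Syt11 and the metal-binding protein Mt2A were lower by 1.30-fold to 2.20-fold. The SNARE protein Stx7, the heavy neurofilament Nefh and the growth factor receptor Fgfr1 were higher by 1.24-fold to 1.85-fold. Each fold is that of the gene's called probe set. Other tested probe sets of Sst, Nptxr, Ptk2b, Gnb1, Hes1 and Nefh had smaller differences that did not pass, and that of Fgfr1 had the opposite sign. By the brightest probe set of each gene, 7 genes were called lower and 3 higher. In all, 14 of 736 probe sets (1.9%) passed an adjusted p of 0.05 with limma and Benjamini-Hochberg adjustment, 3 higher (0.408%) and 11 lower (1.49%), and 107 had an unadjusted p under 0.05. One lower probe set of the 14 had no gene symbol. The 3 short access and 3 no access arrays lay apart without overlap for all 14, and for 154 of all 736 probe sets (20.9%), 82 of them higher and 72 lower with short access. The median difference over all probe sets tested was 0.02.

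The measures of RNA integrity moved with the groups. The log2 ratio of the 3′ to the 5′ probe sets of actin was 0.25, 0.09 and 0.12 on the short access arrays, against -0.13, 0.03 and 0.07 on the no access arrays, and that of Gapdh averaged 0.43 ± 0.08 with short access and 0.27 ± 0.11 with no access (SD, n = 3 each). Neither pair of groups overlapped, and the exact permutation p was 0.1 for both, the smallest that 3 against 3 arrays can give (0.186 adjusted over 13 measures). With either ratio as a covariate, chosen after seeing the data, 1 probe set passed, that of Nptxr, and all 14 kept their direction. In the median, the differences of the 14 were 0.949 times (actin) and 0.919 times (Gapdh) as large as without it, and their standard errors 1.49 and 1.41 times as large. When all 63 arrays shared 1 estimate of the spread, 0 probe sets passed in limma, 35 had an unadjusted p under 0.05 and the lowest adjusted p was 0.317.

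**Figure D1:**
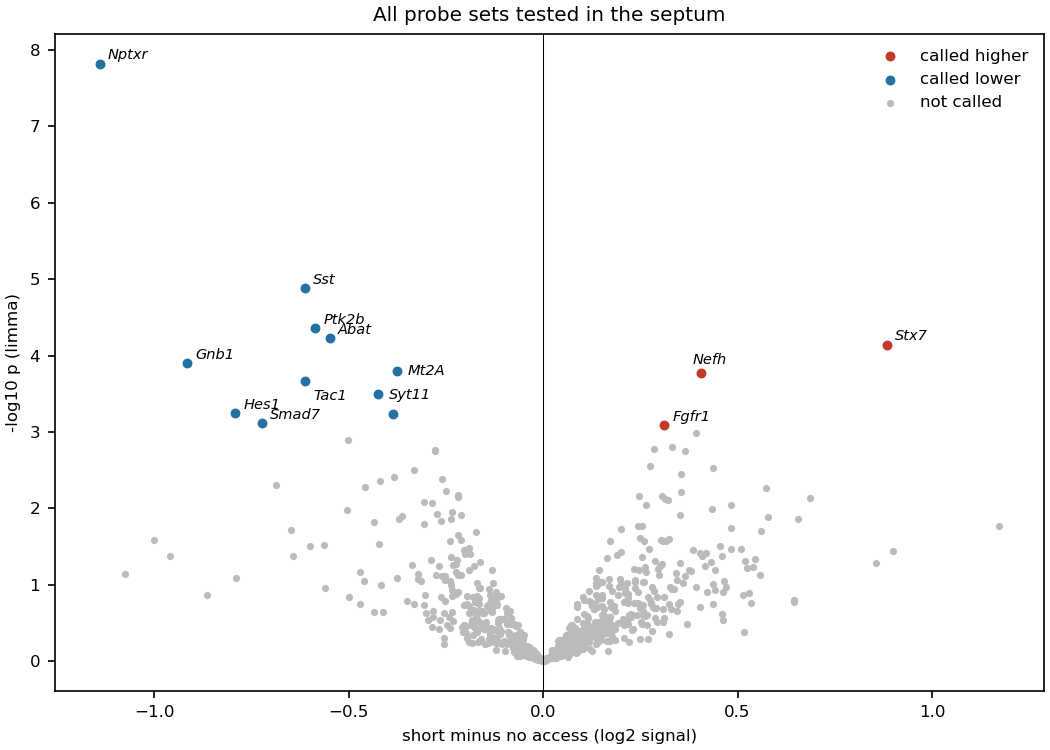
Difference between short and no access in the septum (x axis, log2 signal) against -log10 of the unadjusted limma p (y axis), 1 point per probe set tested. The 3 called higher are in red and the 11 called lower in blue, with Nptxr farthest up at a difference of -1.14.

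Both neuropeptides with a called probe set were lower. Somatostatin is an inhibitory peptide made by many GABA neurons. Sst had a log2 signal of 10.84, 10.77 and 10.75 on the short access arrays, against 11.51, 11.35 and 11.33 on the no access arrays. The gap between the groups was wider than the range within either. The difference was -0.61 ± 0.09 (SE, n = 3 each), a 1.53-fold lower level, with an adjusted p of 0.00485 (limma). A second Sst probe set read 9.37, 9.49 and 9.43 with short access, against 9.80, 9.54 and 9.86 with no access. All its short access arrays were again below all no access arrays, but its difference of -0.31 ± 0.10 did not pass (adjusted p = 0.147).

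Tac1 encodes the precursor of substance P and neurokinin A. Its signal was 8.54, 8.55 and 8.23 with short access, against 9.16 on the first and 9.0 on both other no access arrays. That is -0.61 ± 0.12 with an adjusted p of 0.0178 (limma), the third short access array being the lowest of the 6. The other Tac1 probe set was too dim to be tested.

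Of the 31 genes on the neuropeptide list, 13 were on the array and 10 were tested. Sst and Tac1 were called lower and none was called higher, and 8 of the 10 differences were negative, with a median of -0.30. By the same choice of the brightest probe set, 7 of all 462 genes were called lower and 3 higher, 202 differences were negative and the median was 0.04. Among the members that did not pass, the enkephalin precursor Penk had a difference of -0.31 ± 0.11 (adjusted p = 0.203), cholecystokinin (Cck) -0.42 ± 0.23 (adjusted p = 0.429) and neuropeptide Y (Npy) -0.34 ± 0.16 (adjusted p = 0.357). The nociceptin precursor Pnoc had 0.26 ± 0.10 (adjusted p = 0.26) and the dynorphin precursor Pdyn 0.27 ± 0.27 (adjusted p = 0.649). None of the 8 peptide receptors tested, of 41 listed, passed in either direction, and their median was 0.17. The substance P receptor Tacr1 was at 6.70, 6.79 and 7.30 on the short access arrays, against 6.40, 6.69 and 6.39 on the no access arrays, a difference of 0.44 ± 0.24 (adjusted p = 0.426).

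Tac1, Penk and the dopamine receptor Drd1 are also markers of the striatum, which borders the septum. Drd1 read 7.19, 6.67 and 6.56 with short access, against 7.48, 7.44 and 7.19 with no access (difference -0.56 ± 0.23, adjusted p = 0.285). The adenosine receptor Adora2a, the other striatal marker tested, overlapped between the groups with a difference of 0.23 ± 0.25 (adjusted p = 0.681). The summed scaled signal of the 6 striatal markers on the array was 1508 to 1630 with short access and 1885 to 2092 with no access, without overlap, and none of the 6 was at the floor on all arrays. Bright members weigh most in such a sum, and here these were Penk and Tac1. The sum is therefore not separate from the call of Tac1 and does not show that all 6 were lower. Of the 4 tested, Tac1 was called lower, and the median of the 4 was -0.44. The summed signal of 6 cortical and hippocampal pyramidal markers likewise did not overlap, at 4608 to 5256 with short access and 5339 to 5805 with no access, with a median of -0.28. None of these 6 was called by its brightest probe set, but Nptxr is a member and was called lower by another probe set. The sum holds the brighter Nptxr probe set, so it is not separate from the call of that gene. The 6 ran from -0.44 for Nptxr by its brightest probe set and -0.42 for Cck to 0.42 for the adrenergic receptor Adra1d. The calmodulin-binding protein Nrgn was at 0.01. The kinase Itpka, with the smallest p of the 6, was at -0.29 ± 0.09 (adjusted p = 0.148, limma). Septum minus the mean of the other 5 regions was 1.18 ± 0.07 for Itpka, -1.54 ± 0.15 for Cck and -0.21 ± 0.06 for Nrgn. Nptxr, Adra1d and Camk2a did not pass that test, so not all 6 mark tissue outside the septum. The part of neighbouring tissue in the lower Tac1 was not tested. In tissue RNA, fewer cells of a type and less RNA per cell cannot be told apart.

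Abat, the GABA transaminase that breaks GABA down, was the one called gene of 17 tested in the list of GABA synthesis, transport and receptors (24 listed). It had 8.96, 8.89 and 8.79 with short access, against 9.42, 9.48 and 9.39 with no access. The difference was -0.55 ± 0.09, 1.46-fold lower, with an adjusted p of 0.0106 (limma), and the groups were separated by more than their ranges. The median of the list was -0.04, with 8 positive and 9 negative members. Slc32a1 read 12.44, 12.45 and 12.39 on the short access arrays, against 12.62, 12.60 and 12.58 on the no access arrays, a non-overlapping but small difference of -0.17 ± 0.06 (adjusted p = 0.229). Gad1 overlapped between the groups, at 11.90, 11.93 and 11.60 with short access, against 11.80, 11.02 and 11.45 with no access. Its difference was 0.39 ± 0.16 (adjusted p = 0.297). For the GABA-B receptor subunit Gabbr1, 1 of 5 probe sets came near the threshold at -0.28 ± 0.07 (adjusted p = 0.0624), and the other 4 had differences of -0.22, -0.14, 0.29 and 0.25.

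The largest change by the test was in Nptxr, a membrane-bound member of the pentraxin family, which gathers AMPA-type glutamate receptors at excitatory synapses. Its called probe set had 8.92, 8.93 and 8.95 with short access, against 10.16, 10.05 and 10.01 with no access. The short access arrays were nearly identical, and the difference of -1.14 ± 0.09, 2.20-fold lower, had an adjusted p of 1.11e-05 (limma). A second, brighter Nptxr probe set read 10.41, 9.83 and 10.12 with short access, against 10.66, 10.36 and 10.65 with no access. Here the groups overlapped, and the difference of -0.44 ± 0.15 did not pass (adjusted p = 0.198). The remaining one was too dim to be tested. Both probe sets tested carry the suffix for possible cross-hybridisation, and because the brighter one stands for the gene in the lists, 0 of 16 adhesion and cell surface genes count as called. None of the 19 glutamate receptor genes tested, of 25 listed, passed, and their median was 0.05. Grm3, a presynaptic and glial metabotropic receptor, was lower on every short access array with a difference of -0.24 ± 0.08 (adjusted p = 0.187). The AMPA receptor subunits Gria1 and Gria2 had differences of -0.06 ± 0.10 and -0.12 ± 0.11.

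2 genes of vesicle traffic were called in opposite directions among the 22 tested of that list (60 listed). Stx7, a syntaxin of late endosomes and lysosomes, had 8.19, 8.46 and 8.34 with short access, against 7.25, 7.55 and 7.54 with no access. It was higher by 0.88 ± 0.15, or 1.85-fold, with an adjusted p of 0.0106 (limma), the largest rise among the probe sets called. Syt11, a synaptotagmin of vesicle and membrane traffic, read 10.42, 10.48 and 10.18 with short access, against 10.84, 10.81 and 10.70 with no access. It was lower by 1.34-fold (-0.42 ± 0.09, adjusted p = 0.0238), and the third short access array was the lowest. The list's median was -0.04, with 10 positive and 12 negative differences.

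Signalling genes with a called probe set were lower, except Fgfr1. Ptk2b, a calcium-activated tyrosine kinase also called Pyk2, had 8.53, 8.71 and 8.70 with short access, against 9.20, 9.28 and 9.21 with no access (-0.59 ± 0.10, adjusted p = 0.0106). The second Ptk2b probe set was also lower on every short access array, with a difference of -0.33 ± 0.09, and did not pass (adjusted p = 0.0973). Gnb1, a beta subunit of heterotrimeric G proteins, read 7.71, 7.47 and 7.10 with short access, against 8.28, 8.39 and 8.35 with no access. Its difference was -0.92 ± 0.17 (adjusted p = 0.0152), and the short access arrays were more spread than the others. The other 4 Gnb1 probe sets overlapped between the groups, with differences of -0.18 to -0.04. The disagreement among probe sets leaves the level of the whole gene uncertain.

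Hes1, a transcriptional repressor switched on by Notch receptors, had 7.72, 7.99 and 8.02 with short access, against 8.69, 8.43 and 8.98 with no access. It was 1.73-fold lower (-0.79 ± 0.17, adjusted p = 0.0362), while a second probe set of Hes1 had -0.08 ± 0.18 (adjusted p = 0.871). Smad7, which blocks signalling from TGF-beta receptors, read 6.96, 7.07 and 7.04 with short access, against 7.86, 7.80 and 7.59 with no access (-0.72 ± 0.16, adjusted p = 0.0427). Fgfr1, a receptor for fibroblast growth factors, had 10.60, 10.46 and 10.58 with short access, against 10.24, 10.24 and 10.23 with no access. It was 1.24-fold higher (0.31 ± 0.07, adjusted p = 0.0427), but a second Fgfr1 probe set was at -0.16 ± 0.11 (adjusted p = 0.511). Hes1, Smad7 and Fgfr1 had the highest adjusted p among the named genes called. When each of the 9 septum arrays was left out in turn, Hes1 kept its call in 3 of the 9 fits, and Smad7 and Fgfr1 in 1 each. The called probe sets of Ptk2b, Gnb1, Tac1 and Fgfr1, like that of Nptxr, carry the suffix for possible cross-hybridisation.

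In the wider signalling lists no further gene passed. 0 of 30 second messenger genes (calcium, cyclic AMP and protein kinase C pathways) and 0 of 13 kinase genes were called by their brightest probe set, with medians of 0.05 and 0.02. Among 24 neurotrophic and growth factor genes, Fgfr1 was called higher and none lower, with a median of 0.15.

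Nefh, the heavy subunit of the neurofilaments that fill thick axons, had 10.60, 10.47 and 10.48 with short access, against 10.15, 10.03 and 10.16 with no access. It was 1.32-fold higher (0.41 ± 0.08, adjusted p = 0.0154). Its second probe set was higher on every short access array too, by 0.22 ± 0.12 (adjusted p = 0.421). Nefm, the medium subunit, read 10.89, 10.89 and 10.83 with short access, against 10.68, 10.56 and 10.55 with no access, a difference of 0.27 ± 0.07 that did not pass (adjusted p = 0.0921). Nefh was the one call among 13 cytoskeletal genes.

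Mt2A, a metallothionein that binds zinc and copper and is induced by metals and glucocorticoids, had 11.24, 11.23 and 11.30 with short access, against 11.59, 11.71 and 11.60 with no access. It was 1.30-fold lower (-0.38 ± 0.07, adjusted p = 0.0154), with small spread in both groups. Mt2A was not on the list of stress, antioxidant and apoptosis genes. None of the 21 genes of that list that were tested passed by this test, with a median of 0.04.

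**Figure D2:**
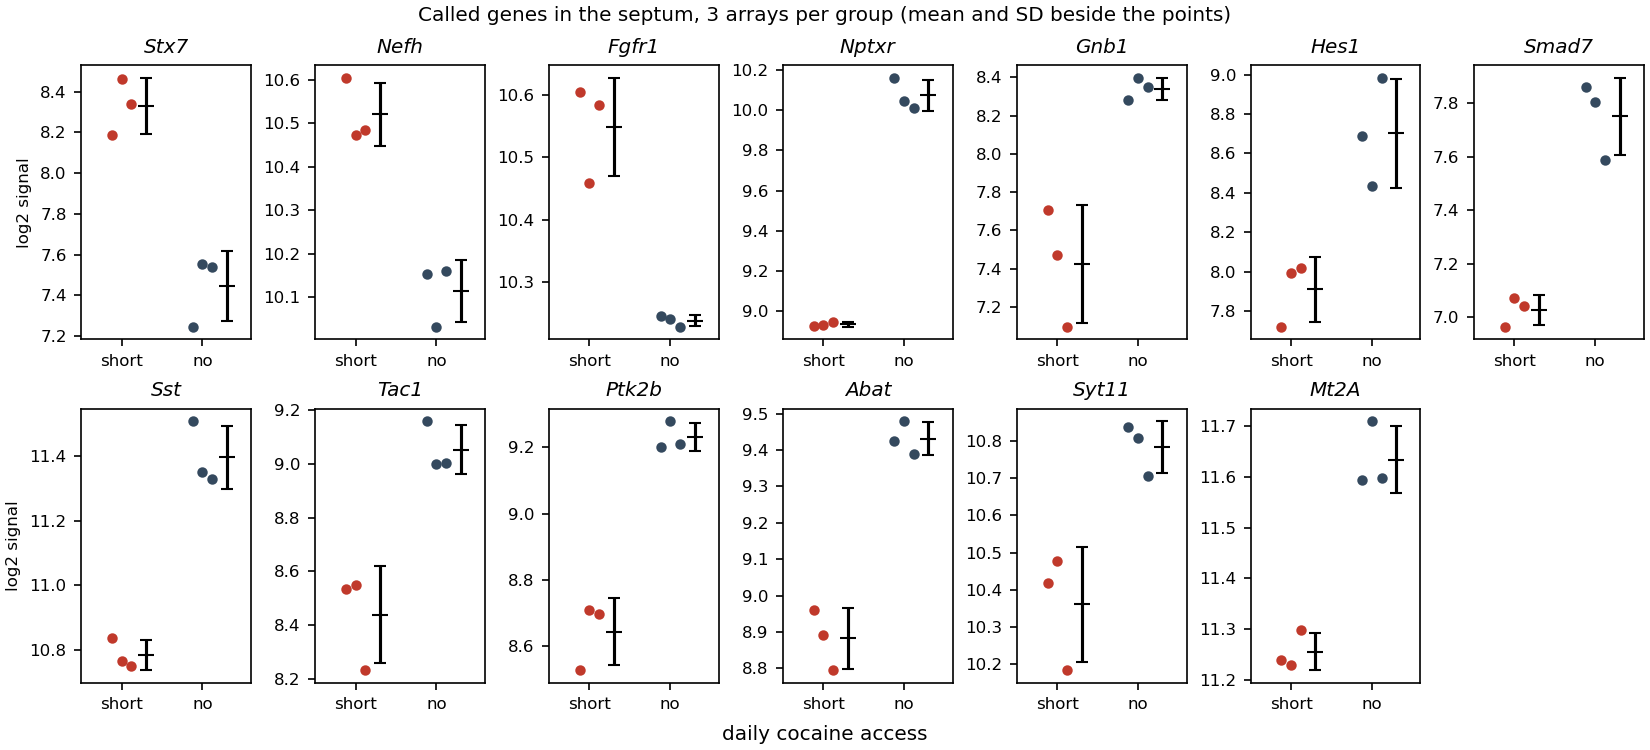
Log2 signal (y axis) of the 13 named genes called, for the 3 short access arrays (left in each panel) and the 3 no access arrays (right), 1 point per array with the mean and SD beside them. In none of the 13 do the points of the groups overlap, and Nptxr shows the widest gap, at 8.92 to 8.95 with short access and 10.01 to 10.16 with no access.

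The sequences before the start sites of Mt2A and Hes1 are shown because both genes have well-known control sites there. They were chosen after the values were seen, and 8 of the 13 named genes called had a promoter in the RefSeq table (GRCr8). The first is chr19:10838709-10838958 and the second chr11:84213046-84213295, both on the minus strand and printed 5′ to 3′ up to the base before the start. Capitals in Mt2A mark the metal response cores TGCACNC and TGCGCNC on either strand and the TATA box TATAAA, and capitals in Hes1 mark GTGGGAA, the core bound by the Notch-controlled factor RBPJ.
Mt2A: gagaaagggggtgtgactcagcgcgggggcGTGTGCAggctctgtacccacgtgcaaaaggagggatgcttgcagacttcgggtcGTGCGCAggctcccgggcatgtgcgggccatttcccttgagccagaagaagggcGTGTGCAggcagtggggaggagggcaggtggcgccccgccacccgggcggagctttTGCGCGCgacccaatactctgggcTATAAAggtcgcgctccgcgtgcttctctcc
Hes1: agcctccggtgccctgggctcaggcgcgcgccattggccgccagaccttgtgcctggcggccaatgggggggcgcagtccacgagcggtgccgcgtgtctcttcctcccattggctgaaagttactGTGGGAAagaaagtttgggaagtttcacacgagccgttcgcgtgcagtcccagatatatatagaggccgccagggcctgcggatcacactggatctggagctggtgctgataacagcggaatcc
The Mt2A window held 4 metal response cores, whose leftmost bases lay 220, 165, 111 and 55 bases before the start, with the TATA box at 31, and the Hes1 window held its GTGGGAA at 124. Searched on both strands, TGCACNC was present in 10.3% of all 33469 promoters in the table, TGCGCNC in 11.8%, TATAAA in 12.9% and GTGGGAA in 5.27%. Among the 8 called genes with a promoter, these motifs were present in 3, 3, 2 and 1. Capitals mark letters, and whether any factor binds there was not tested.

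Among genes that did not pass, 6 on either side had the smallest p, and Nefm was one of those with higher signal. Slco1a4, an organic anion carrier of the vessel wall, had 9.78, 9.64 and 9.69 with short access, against 9.34, 9.22 and 9.37 with no access (0.39 ± 0.09, adjusted p = 0.0513). The intermediate filament Vim had 0.29 ± 0.07 (adjusted p = 0.0624), the complement component C4b 0.37 ± 0.09 (adjusted p = 0.0624) and the potassium channel Kcnc1 0.44 ± 0.12 (adjusted p = 0.0947). For the chemokine Cx3cl1, 1 probe set had 0.33 ± 0.08 (adjusted p = 0.0624) and the other 3 had -0.20, -0.09 and -0.04. On the lower side stood the serotonin receptor Htr2c at -0.38 ± 0.11 (adjusted p = 0.110), the calcium sensor Hpca at -0.26 ± 0.07 (adjusted p = 0.112), the adhesion molecule Ncam1 at -0.42 ± 0.12 (adjusted p = 0.117) and the cell death gene Hrk at -0.69 ± 0.20 (adjusted p = 0.127). The other probe sets overlapped between the groups, at -0.19 for Htr2c, -0.13 and 0.08 for Ncam1, and -0.26 for Hrk. Transferrin (Tf), an iron carrier made by oligodendrocytes, was at -0.22 ± 0.07 (adjusted p = 0.142), with its other 2 probe sets at -0.11 and 0.15.

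Monoamine genes and acetylcholine genes held no call. The plasma membrane monoamine transporters, the direct targets of cocaine, were not among the monoamine genes tested. Of the acetylcholine genes tested, Slc18a3 is the septal neuron marker, and the others encode receptors or their subunits. Of 44 monoamine genes listed, 15 were tested and 0 passed, with a median of 0.07. The D3 receptor gene Drd3 read 9.41, 9.58 and 9.66 with short access, against 9.34, 9.18 and 9.22 with no access (0.31 ± 0.09, adjusted p = 0.142). Of 24 acetylcholine genes, 8 were tested and 0 passed, with 6 positive differences and a median of 0.18. Slc18a3 was higher on every short access array for both of its probe sets, by 0.31 ± 0.10 (adjusted p = 0.142) and 0.24 ± 0.13 (adjusted p = 0.421). Activity-induced genes gave 0 calls of 13 tested. Fos, an early response gene, was at 9.13, 9.27 and 9.22 with short access, against 9.19, 9.17 and 9.14 with no access, a difference of 0.04 ± 0.09 (adjusted p = 0.842), and Egr1 at -0.22 ± 0.08 (adjusted p = 0.246). Potassium channels gave 0 calls of 22 with a median of -0.08, and sodium, calcium and chloride channels and pumps 0 of 33 with a median of 0.09.

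Markers of other cell types gave no call among those tested (7 oligodendrocyte, 8 astrocyte, 6 microglial and immune, 2 vessel, and 3 choroid plexus, meningeal and ependymal genes). The summed signal of the astrocyte markers was 51262 to 55524 with short access and 50385 to 53927 with no access, and that of the oligodendrocyte markers 38237 to 39727 with short access and 38393 to 41052 with no access. The mean log2 signal of the tested members did not overlap for 3 of these lists. It was 11.63 ± 0.03 with short access and 11.54 ± 0.05 with no access for astrocyte markers, 11.82 ± 0.01 and 11.87 ± 0.01 for oligodendrocyte markers with short and no access, and 9.12 ± 0.05 and 8.48 ± 0.50 for vessel markers with short and no access (SD, n = 3 each). The exact permutation p was 0.1 for each, the smallest possible (0.186 adjusted over the 13 measures), and their part in the calls was not tested. Microglial markers summed to 4111 to 4462 with short access and 4239 to 4414 with no access, and vessel markers to 1841 to 2104 with short access and 1569 to 1867 with no access. The choroid plexus, meningeal and ependymal sum was 8312 to 8548 with short access and 7752 to 8255 with no access, without overlap. The mean log2 signal of that list overlapped, at 11.12 ± 0.03 with short access and 11.14 ± 0.02 with no access (SD). Of its 3 genes, 1 had a positive difference (Igf2) and 2 a negative one. The vessel list's median of 0.64 came from Pdgfrb at 1.17 ± 0.43 (adjusted p = 0.207), which was at the floor on 1 no access array. Among 6 septal neuron markers tested (19 listed) Sst was called lower and the median was 0.24, and their summed signal overlapped, at 12662 to 13473 with short access and 12803 to 14708 with no access. Within the astrocyte list, the potassium channel Kcnj10 had 2 probe sets of opposite direction, 0.35 ± 0.10 (adjusted p = 0.103) and -0.46 ± 0.14 (adjusted p = 0.129).

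**Figure D3:**
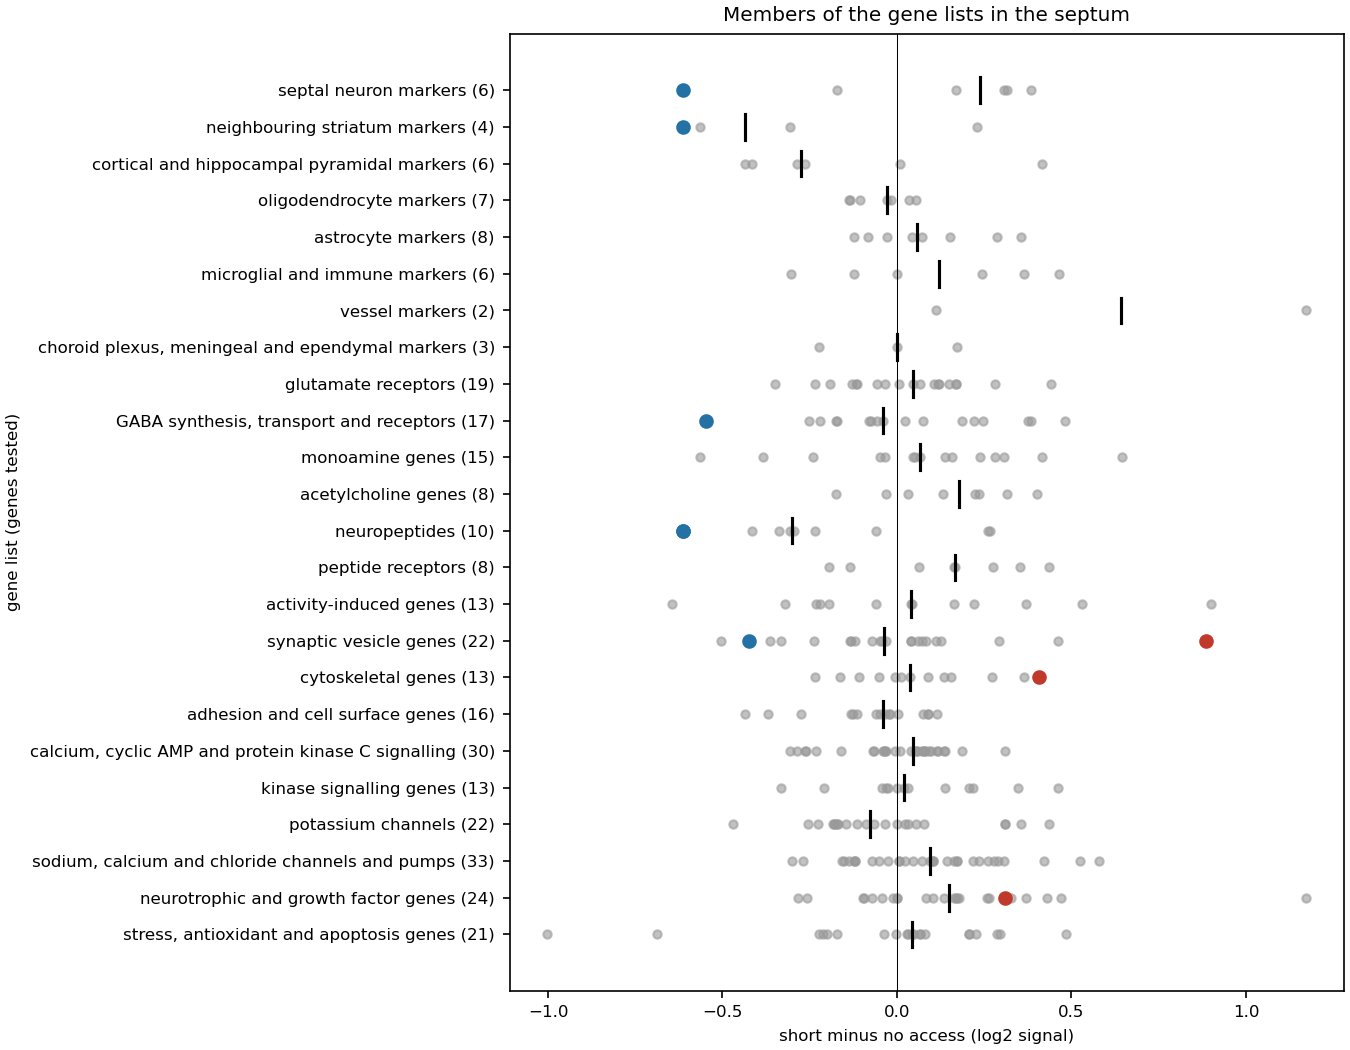
Short minus no access in the septum (x axis, log2 signal) for each gene of 24 lists, by its brightest probe set tested, with a bar at the list's median, red for called higher and blue for called lower. The neuropeptide and striatal lists sit left of 0, at medians of -0.30 and -0.44, and the points of Sst and Tac1 coincide at -0.61 in the neuropeptide row.

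Placed beside the septum of rats with 6 h of access, the called genes fell into different courses over 0, 1 and 6 h. The comparisons of short and long access with no access share the 3 no access arrays, so each gene's values are given side by side. The called genes were chosen by their short access arrays, and long minus short access uses those arrays again. Its p-values for these genes are therefore biased toward an apparent return, and the courses were not tested on other arrays. For long access 17 of 736 probe sets (2.31%) passed against no access, 7 higher and 10 lower, and 15 (2.04%) against short access. The log2 3′ to 5′ ratio of actin was 0.06, -0.02 and -0.03 on the long access arrays, below all short access arrays and within the no access range. That of Gapdh was 0.32, 0.33 and 0.39 with long access, against means of 0.43 with short and 0.27 with no access. The part of RNA integrity in the courses was not tested.

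Sst averaged 11.40 ± 0.10 at 0 h, 10.78 ± 0.05 at 1 h and 11.29 ± 0.16 at 6 h (SD, n = 3 each). Long minus no access was -0.11 ± 0.09 (adjusted p = 0.531), and long minus short access was 0.50 ± 0.09 (adjusted p = 0.0222, limma), with the 3 long access arrays all above the 3 short access arrays. Stx7 had the mirror course, with 7.45 ± 0.17 at 0 h, 8.33 ± 0.14 at 1 h and 7.61 ± 0.11 at 6 h. Its long minus short difference was -0.72 ± 0.15 (adjusted p = 0.0306). Ptk2b and Gnb1 were also higher with long than with short access, by 0.45 ± 0.10 (adjusted p = 0.0306) and 0.75 ± 0.17 (adjusted p = 0.0421), with long minus no access at -0.13 (adjusted p = 0.471) and -0.17 (adjusted p = 0.622). Other probe sets gave other courses for Gnb1. Its brightest by mean differed by -0.04 with short access, and with long access was higher than with no access by 0.46 ± 0.08 (adjusted p = 0.00764) and than with short access by 0.50 ± 0.08 (adjusted p = 0.0222). The second probe sets of Sst and Ptk2b were at 0.10 (adjusted p = 0.632) and -0.11 (adjusted p = 0.532) for long minus no access.

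Nptxr and Abat were lower in both access groups. Nptxr averaged 10.07 ± 0.08 at 0 h, 8.93 ± 0.01 at 1 h and 9.21 ± 0.09 at 6 h, and long minus no access was -0.87 ± 0.09 (adjusted p = 1.21e-04). Its brighter probe set, which did not pass with short access, passed with long access at -0.71 ± 0.15 (adjusted p = 0.0330). Abat averaged 9.43 ± 0.05 at 0 h, 8.88 ± 0.08 at 1 h and 8.97 ± 0.06 at 6 h, with a long minus no difference of -0.46 ± 0.09 (adjusted p = 0.0205). The called Fgfr1 probe set was graded, at 10.24 ± 0.01 at 0 h, 10.55 ± 0.08 at 1 h and 10.96 ± 0.04 at 6 h, and long minus short access was 0.41 ± 0.07 (adjusted p = 0.0222). The second Fgfr1 probe set was not graded, with 10.47 ± 0.09 at 0 h, 10.30 ± 0.12 at 1 h and 10.36 ± 0.24 at 6 h. For the called probe sets of Nefh, Hes1, Smad7, Tac1, Syt11 and Mt2A the long access mean lay between the other two, and neither difference that involves long access passed. Their long minus no differences were 0.19, -0.45, -0.32, -0.23, -0.23 and -0.18.

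**Figure D4:**
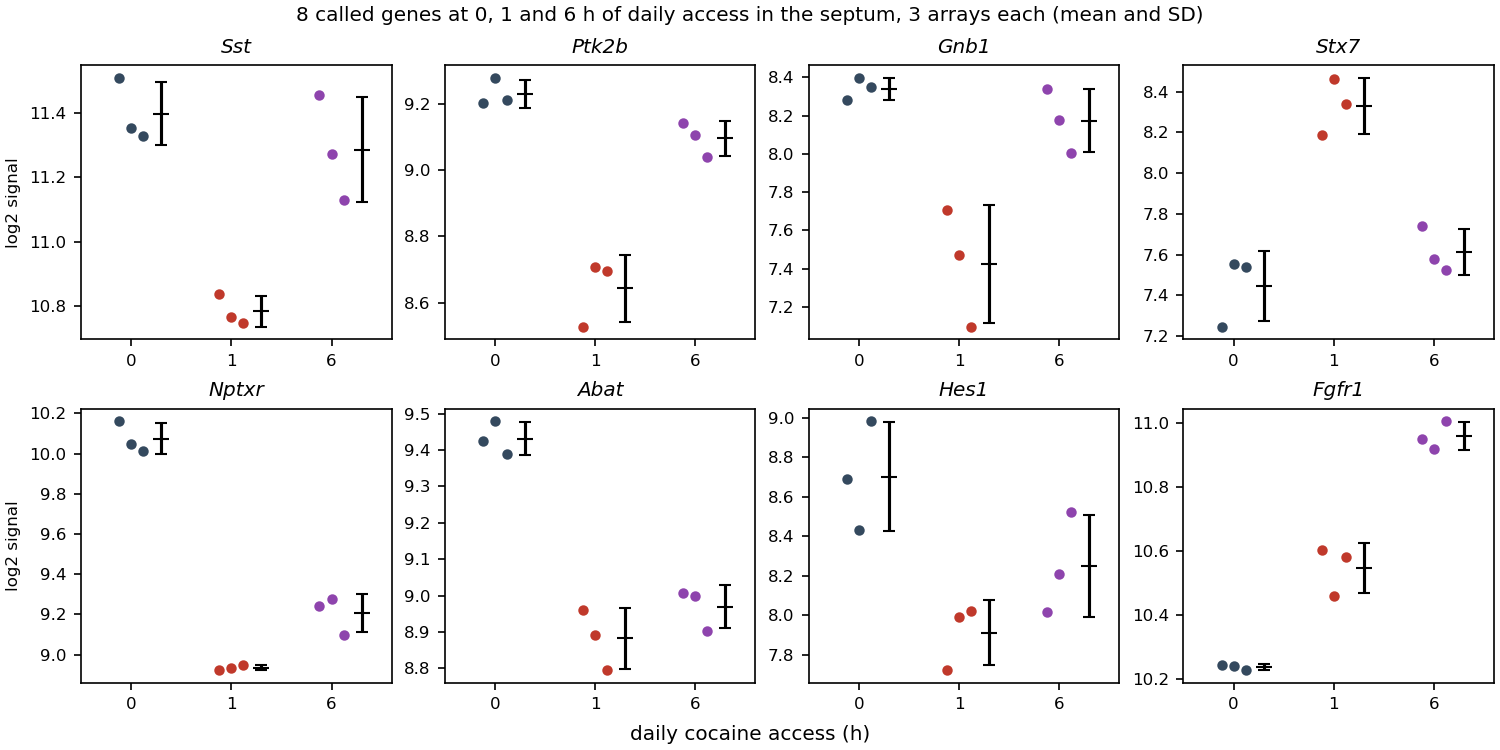
Log2 signal in the septum (y axis) of 8 called genes at 0, 1 and 6 h of daily access (x axis), 1 point per array with the mean and SD beside them. Sst, Ptk2b, Gnb1 and Stx7 at 6 h lie nearer to 0 h than to 1 h, Nptxr and Abat nearer to 1 h, and Fgfr1 continues upward to 10.96.

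Whether the septal differences were particular to the septum was tested as the septum's short minus no difference less the mean of that difference in nucleus accumbens, amygdala, lateral hypothalamus, ventral tegmental area and medial prefrontal cortex. Over 858 probe sets, 0 (0%) passed in limma, 36 had an unadjusted p under 0.05, and the lowest adjusted p was 0.0717, for Sst and Hrk. Sst differed by -0.61 in the septum and by 0.04, 0.39, 0.17, 0.30 and 0.04 in those 5 regions in the order named. The septal excess was -0.80 ± 0.19. For Hrk it was -0.88 on the log2 scale, and Hrk had not passed within the septum. Abat had an excess of -0.67 ± 0.21 (adjusted p = 0.454) and Nptxr -1.12 ± 0.39 (adjusted p = 0.58). The called genes were chosen by their septal arrays, so their septal excess is biased toward a larger size. Not passing in another region does not show that a difference was absent there.

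The lower Gnb1 signal was found outside the septum too. The same probe set differed by -0.96 in nucleus accumbens, -0.41 in amygdala, -0.85 in lateral hypothalamus, -0.96 in ventral tegmental area and -0.68 in medial prefrontal cortex. It passed in lateral hypothalamus (adjusted p = 7.82e-04) and ventral tegmental area (adjusted p = 0.00874), and the septal excess was -0.15 ± 0.26. Mt2A was also negative in all 6 regions, from -0.59 in nucleus accumbens to -0.13 in ventral tegmental area, but passed in the septum alone, with a septal excess of 0.05 ± 0.43. Nptxr also passed in lateral hypothalamus, at -0.44 (adjusted p = 0.0105), as did Tac1 there, at -0.40 (adjusted p = 0.0425). Without passing, Tac1 differed by -0.85 in nucleus accumbens, -0.43 in ventral tegmental area, -0.01 in medial prefrontal cortex and 0.42 in amygdala. Its septal excess was -0.36 ± 0.36. Stx7 passed in none of the other regions. It differed by 0.20 in nucleus accumbens, 0.75 ± 0.38 (SE) in amygdala and -0.11 in lateral hypothalamus. In ventral tegmental area it was at 0.25 and in medial prefrontal cortex at -0.24. Smad7 was bright enough to be tested in nucleus accumbens alone among the other 5, at 0.36 (adjusted p = 0.814).

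**Figure D5:**
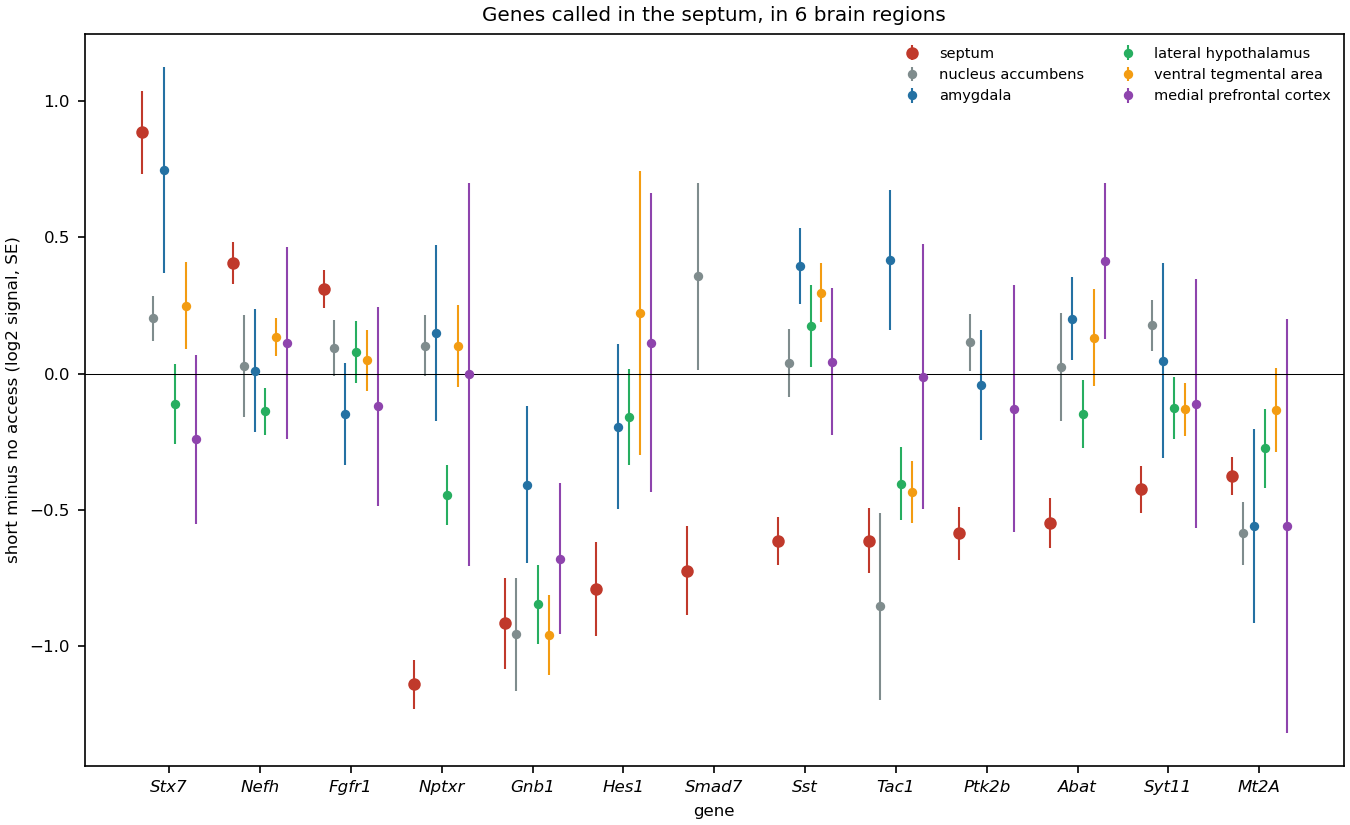
Short minus no access (y axis, log2 signal, with SE) for the 13 named genes called in the septum, in each of 6 brain regions by colour, where the probe set was bright enough to be tested. The septum is drawn with the larger red points, Gnb1 and Mt2A lie below 0 in all 6 regions, and Sst lies below 0 in the septum and at 0.04 to 0.39 elsewhere.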

How the data were processed

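Total RNA of dissected septum was labelled as biotinylated cRNA and hybridised to Affymetrix Rat Neurobiology U34 arrays, per the labels' protocols. The deposited values are a linear signal intensity per probe set made by the authors in MAS5 according to the submitters' processing notes. Its version is not given in the sources used here. The trimmed mean of the deposited intensity was 250.8 to 251.3 on every array of the study, so the arrays had been scaled before deposit. Arrays have no read depth, and their number limits the precision.

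Of 1322 probe sets, 59 controls were left out of the tests. Symbols came from the platform annotation, with 1137 probe sets of 1 symbol (1132 found by Entrez identifier in RefSeq), 8 of several and 118 of none. Signals were multiplied to give every array a 2% trimmed mean of 500, floored at 32 and put on the log2 scale. Testing was limited to probe sets with a mean of at least log2 of 100 over the 9 septum arrays. limma 3.58.1 in R 4.3.3 was fitted to the 9 arrays in 3 groups with an intensity trend, and p-values were adjusted by Benjamini-Hochberg at 0.05. The difference from other regions was fitted to all 63 arrays in 18 groups, and array measures were compared with an exact permutation test, two-sided. The scripts were tested on simulated data.

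The genes named are those called, the 6 of smallest p on either side of those not called, and members of 24 gene lists, with 1 probe set per gene (the brightest) in the lists. The comparison and the lists were chosen with earlier results of these data known. Other settings of the scaling, floor, filter, trend, arrays and covariates were tried. No 2 arrays had identical values.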

Additional observations from a re-analysis of the deposited data

How the results depend on the processing

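Of the 13 named genes called, all kept their direction under every alternative run, and 5 (Nptxr, Sst, Stx7, Ptk2b and Abat) kept their call without each of the 9 septum arrays in turn. The count of 14 probe sets called (3 higher, 11 lower) ranged from 7 to 15 without 1 array, with 1 to 4 higher and 5 to 11 lower. It was 8 without no access replicate 1, 7 without no access replicate 2, 7 without short access replicate 1 and 8 without short access replicate 3. Fgfr1 and Smad7 each kept the call in 1 of those 9 fits and Hes1 in 3. On the values as deposited 19 passed (6 higher, 13 lower), as with a filter at a signal of 200, and 14 without a filter (5 higher, 9 lower). Without an intensity trend 8 passed (1 higher, 7 lower), with array weights 31 (11 higher, 20 lower), and after removing all probe sets with a cross-hybridisation suffix 11 (5 higher, 6 lower). With at least a 1.5-fold change as well, 8 passed (1 higher, 7 lower). In the fit of all 63 arrays 0 passed (0 higher, 0 lower), where standard errors of the 14 were 2.64 times as large in the median. With the 3′ to 5′ ratio of actin or of Gapdh as a covariate, both added after seeing the data, 1 passed (0 higher, 1 lower), and Sst had an adjusted p of 0.0904 and 0.160, while the differences of the 14 kept 0.949 and 0.919 of their size in the median.

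With the replicate number as a replicate block 22 passed (8 higher, 14 lower), including all 14, and 2 for the difference from other regions. Deviations of same-numbered arrays correlated at 0.06, 0.14 and 0.09, and the labels do not say that numbers are shared, so the numbers were not taken to pair the arrays, although each short access array correlated best with its own number. The difference from the other 5 regions gave 0 calls as reported, 1 after quantile normalization, 3 without a floor, 5 without a filter, 2 with a filter at 200 and 18 with array weights. The cause of these shifts was not tested. Of the list medians, 9 values moved by more than the spread, and on the deposited values those of the microglial (-0.12), glutamate receptor (-0.06) and activity-induced (-0.13) lists turned negative. The deposited values left out more dim probe sets, so these medians can cover fewer genes.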
